A study of Arabidopsis thaliana with 8 samples.

Results

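The genes described are the numbered bZIP transcription factors of Arabidopsis thaliana, taken as the probe sets that match 1 gene whose symbol is bZIP followed by a number and that reached a signal of 100 on at least 2 of 8 arrays. The table held 14 such probe sets, each for a different gene, and 9 of them passed the signal level, among 16053 probe sets that passed it in all. The plants were of ecotype Ws (Wassilewskija), 10 days old, and were held under 16 h of light and 8 h of dark at 22 °C on vertical plates of 0.5-strength Murashige and Skoog medium. Control medium had no selenate added and the other medium held 40 µM selenate, an anion that enters plants by the route of sulfate. Each organ was taken separately from plants of both media, which makes 4 groups (control roots, selenate roots, control shoots, selenate shoots) of 2 Affymetrix arrays. Whether replicate arrays stem from different cultures is not stated in the labels. The p-values set each group difference against the scatter between replicate arrays, of the gene itself and of all probe sets, and that scatter may be technical.

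bZIP proteins bind DNA through a basic region and pair through a leucine zipper, and their preferred sites share an ACGT core. Pairing within and between family groups is part of how they work, and several are also controlled after transcription: bZIP17 and bZIP28 sit in the membrane of the endoplasmic reticulum until they are cut free, the bZIP60 mRNA is spliced by the stress sensor IRE1, and translation of the group S1 factors, among them bZIP44 and bZIP53, is lowered by sucrose. An array signal shows the transcript only and carries none of these steps. In bulk organs a lower signal can also mean fewer cells of a type or less RNA per cell, which cannot be told apart here.

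The arrays followed the organ in their titles, although the description fields of the shoot samples mention roots. The summed signal of 3 green-tissue markers (LHCB4.2, PRK, SBPASE) ranged from 54140.7 to 62023.7 in shoots and from 259.9 to 443.9 in roots, and that of 3 root markers (PYK10, EXPA7, EXPA18) ranged from 17806 to 19595.2 in roots and from 5712.6 to 9476.6 in shoots. No marker was at 0. The ratio of 3' to 5' GAPDH signal, a measure of RNA integrity, lay between 0.783 and 0.868 on the root arrays and was 2.03 for shoot control 1, 10.4 for shoot control 2, 7.34 for shoot selenate 1 and 2.95 for shoot selenate 2. By this ratio shoot control 2 and shoot selenate 1 stood apart from their own replicates, and so they did by the actin ratio (55.9 and 51.7, against 21.2 for shoot control 1 and 22.9 for shoot selenate 2). The ubiquitin ratio did not set these 2 arrays apart, with 4.38 and 4.88 on shoot controls 1 and 2 and 5.24 and 6.11 on shoot selenate 1 and 2. On the root arrays the actin ratio was 9.07 and 8.17 on control 1 and selenate 1 and 5.42 and 4.74 on control 2 and selenate 2. The standard deviation of the log2 difference between replicates was 0.26 and 0.28 in control and selenate roots and 0.51 and 0.41 in control and selenate shoots.

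bZIP58 (AT1G13600), a group S factor, was the only numbered bZIP gene lower in selenate roots at a limma adjusted p under 0.05. Its signal was 302.3 and 273.9 on the control root arrays and 89.2 and 83.6 on the selenate root arrays. All 4 values were close to their replicate, and the groups lay far apart. On the log2(signal + 25) scale used throughout, where 25 is a pseudocount that shrinks the changes of weak signals, the change was -1.49 ± 0.29 (SE, n = 2 per group), a 2.81-fold fall (limma, adjusted p = 0.0160 over all probe sets tested). Only 0.486% of the probe sets tested had a more negative change in roots. The call ended, with changes between -1.42 and -1.56, without root control 1, root control 2, root selenate 1 or root selenate 2 (limma adjusted p 0.103 to 0.149), each of which leaves 1 array in a group. It also ended, at the same change, with the replicate number within each organ as a block (adjusted p = 0.124).

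In shoots bZIP58 had signals of 188.3 and 122.1 on the control arrays and 49.4 and 103.7 on the selenate arrays. Both selenate values lay below both control values, but the replicates of each group differed widely. The log2 change was -0.86 ± 0.29 (SE, n = 2 per group), with an unadjusted p of 0.0165 in limma and an adjusted p of 0.208. Leaving out shoot control 1 gave -0.59, shoot control 2 -1.12, shoot selenate 1 -0.46, shoot selenate 2 -1.25, and both arrays of high GAPDH ratio -0.73. The shoot and root changes differed by 0.63 ± 0.41 (log2, SE; 95% interval -0.30 to 1.57; limma adjusted p = 0.541), so a difference between organs was not shown.

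Among the numbered bZIP genes, 1 of 9 was lower and 0 were higher in selenate roots, against 5.71% of all probe sets called in either direction (2.37% lower and 3.35% higher). In shoots 0 of 9 were called by limma, against 1.86% of all probe sets. An unadjusted p under 0.05 was found for 3 of 9 in roots and 2 of 9 in shoots. The share of all probe sets with such a p was not counted, so these counts cannot be set against the shares called. The median log2 change of the 9 genes was 0.25 in roots and 0.06 in shoots, beside -0.02 and -0.02 over all probe sets tested. The root changes ran from -1.49 to 0.50 and the shoot changes from -0.86 to 0.50. Root selenate arrays did not overlap root control arrays for 8 of the 9 genes, 6 higher and 2 lower, but this held for 53.5% of all probe sets tested (23.6% higher, 29.9% lower). In shoots the groups did not overlap for 4 of 9, all lower with selenate, against 36.1% of all (19% lower).

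**Figure D1:**
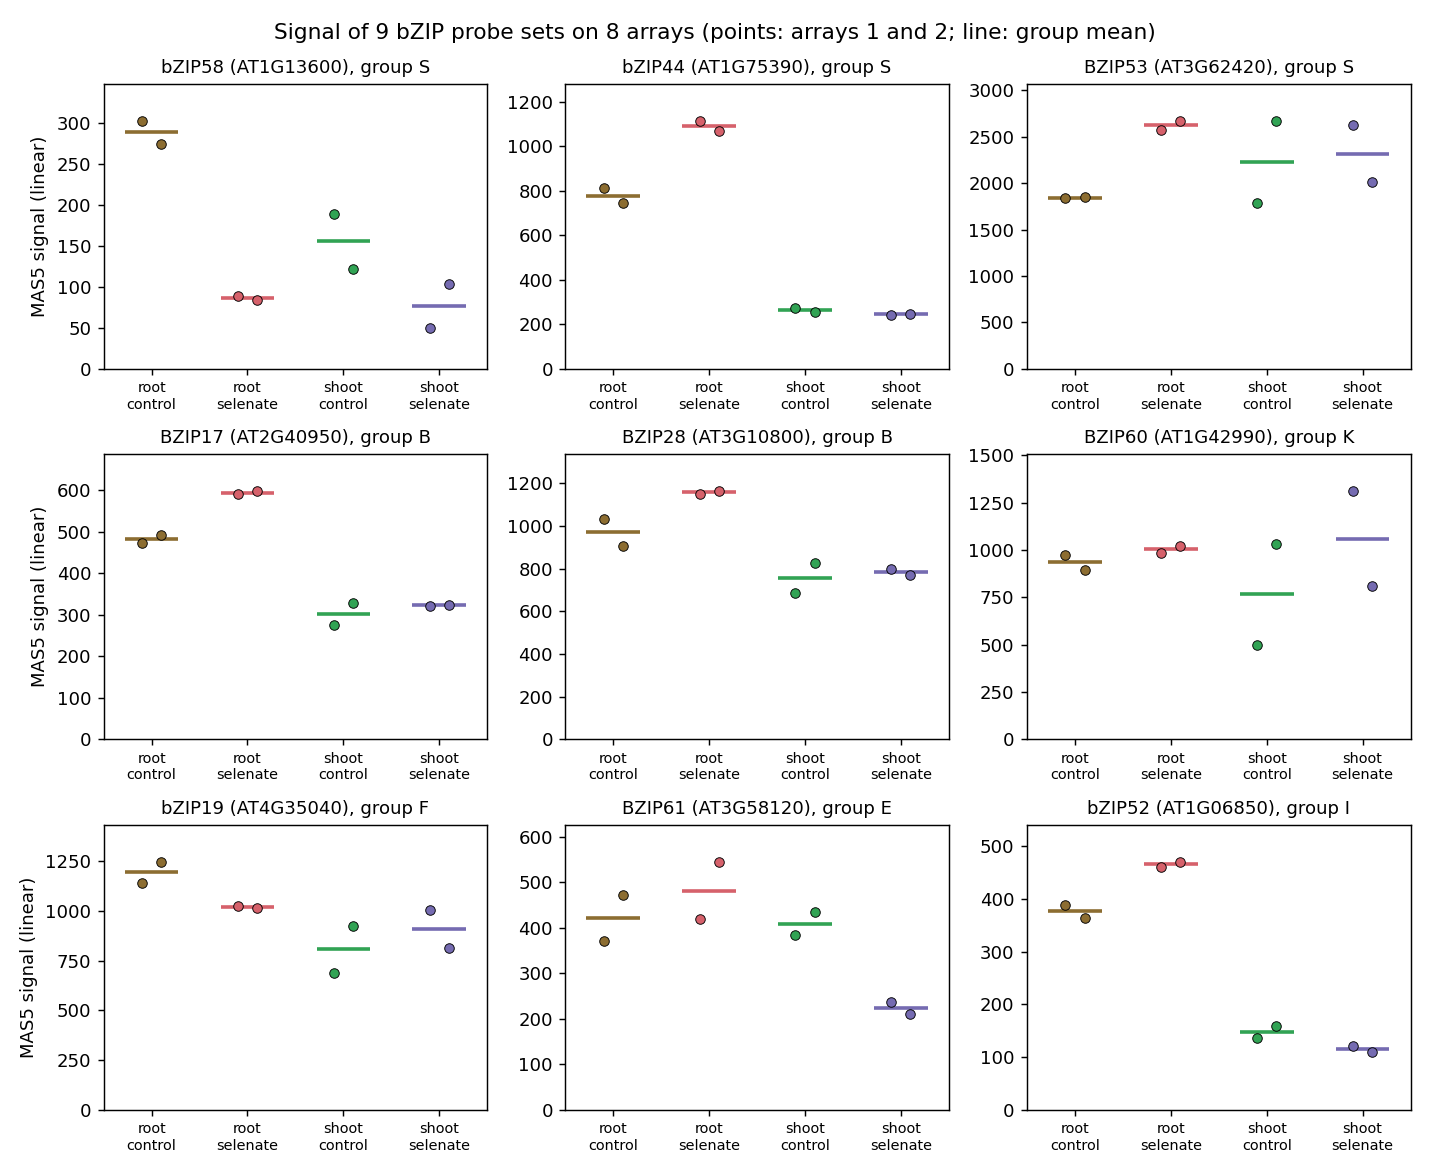
Signal (linear MAS5 units, vertical axis) of the 9 numbered bZIP probe sets on the 8 arrays, by organ and medium; points are arrays 1 and 2 of each group and lines are group means. bZIP58 drops from 302.3 and 273.9 to 89.2 and 83.6 in roots, whereas bZIP44 and bZIP53 sit higher on both selenate root arrays than on both control root arrays.

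The 2 group S1 factors, which act in low-energy metabolism, stood on the other side of 0 in roots. bZIP44 (AT1G75390) had signals of 813.2 and 744.6 in control roots and 1115.1 and 1068.1 in selenate roots. The log2 change was 0.48 ± 0.15 (SE, n = 2 per group; unadjusted p = 0.0125, limma adjusted p = 0.139). BZIP53 (AT3G62420), which is also known from seed maturation, had 1840.1 and 1845.9 in control roots and 2572 and 2671.8 in selenate roots, a log2 change of 0.50 ± 0.21 (unadjusted p = 0.0395, limma adjusted p = 0.291). Both selenate arrays lay above both control arrays for each gene, as they did for 23.6% of all probe sets tested. Neither gene passed the test in the fit over all 8 arrays.

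That fit shares 1 spread between organs. Fitted on the root arrays alone, limma gave an adjusted p of 0.0221 for bZIP44 and 0.00803 for BZIP53 at the same changes. The root-only fit called 3 of the 9 genes (2 higher, 1 lower), against 13.4% of all probe sets (6.22% higher, 7.15% lower). With the replicate number within each organ as a block, the limma adjusted p was 0.333 for bZIP44 and 0.589 for BZIP53. With any 1 root array left out, the changes ran from 0.41 to 0.54 for bZIP44 and from 0.48 to 0.53 for BZIP53. In shoots bZIP44 had 274.7 and 255.2 in controls and 241.4 and 248.6 with selenate, a log2 change of -0.10 (95% interval -0.45 to 0.24). BZIP53 had 1787.2 and 2668.6 in control shoots and 2630.5 and 2007.4 in selenate shoots, and its groups overlapped. The organs' changes differed by -0.58 ± 0.22 (log2, SE) for bZIP44, with an unadjusted p of 0.0255 and a limma adjusted p of 0.229.

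**Figure D2:**
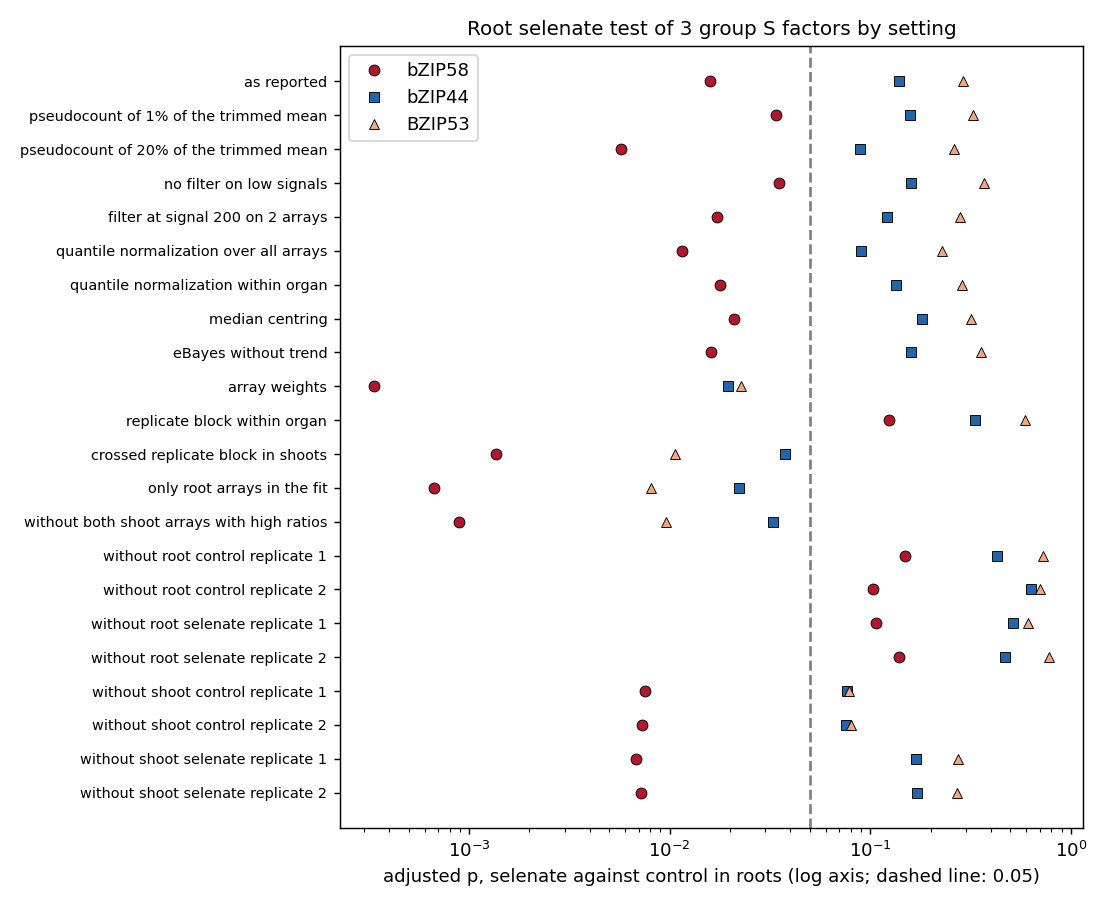
Adjusted p (limma, log axis) of the root selenate comparison for the 3 group S factors bZIP58, bZIP44 and BZIP53, in the fit as reported and under each other setting; the dashed line marks 0.05. bZIP58 goes from 0.0160 as reported to above the line with the replicate block and whenever a root array is left out. bZIP44 and BZIP53 are below the line with array weights, the crossed block, only root arrays, and without both shoot arrays of high ratio. They are above it in the fit as reported and under every other setting.

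None of the 3 factors that act from the endoplasmic reticulum in the unfolded protein response or salt stress passed the test in either organ. BZIP17 (AT2G40950), which is also released under salt stress, had 471.8 and 491.6 in control roots and 590.6 and 596.8 in selenate roots, a log2 change of 0.29 (95% interval -0.07 to 0.65; limma adjusted p = 0.499). BZIP28 (AT3G10800) had 1033.8 and 905.8 against 1152.1 and 1162.7, a change of 0.25 (-0.11 to 0.61; adjusted p = 0.581). BZIP60 (AT1G42990) had 974.7 and 895.5 against 982.4 and 1024, a change of 0.10 (-0.62 to 0.82). In all 3 genes both selenate root arrays were above both control root arrays, an order that 23.6% of all probe sets tested had.

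In shoots BZIP17 and BZIP28 had log2 changes of 0.10 and 0.06. BZIP60 had 499.1 and 1034.2 in control shoots and 1310.4 and 809.9 in selenate shoots, a change of 0.50 (95% interval -0.22 to 1.22; limma adjusted p = 0.539). The higher array of each shoot group was the one with the higher GAPDH ratio. The same held for bZIP19, BZIP28 and BZIP53, so that both arrays of high ratio lay above both other shoot arrays for 4 of 9 bZIP genes and below them for 0, against 26.6% and 21.2% of all probe sets tested. The part of RNA integrity in these values was not tested.

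bZIP19 (AT4G35040) acts with bZIP23 in the response to zinc deficiency. Its signal was 1140 and 1247.2 in control roots and 1022.8 and 1013.1 in selenate roots, both selenate values being lower. The log2 change was -0.22 (95% interval -0.64 to 0.20; limma adjusted p = 0.734). In shoots the values were 689.9 and 925.6 in controls and 1004.9 and 811.9 with selenate, which overlapped.

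BZIP61 (AT3G58120), a group E factor, gave the smallest p of the 9 genes in shoots. Its signal was 384.5 and 433.5 in control shoots and 237.3 and 210.7 in selenate shoots, with no overlap and close replicates. The log2 change was -0.80 ± 0.20 (SE, n = 2 per group; unadjusted p = 0.00278, limma adjusted p = 0.0868), so it missed the threshold over all probe sets. It was -0.80 also without both shoot arrays of high GAPDH ratio. In roots the signals were 371 and 471.4 in controls and 418.2 and 544.6 with selenate, and overlapped. The difference of the organs' changes was -0.98 ± 0.28 (log2, SE; unadjusted p = 0.00644, limma adjusted p = 0.109).

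bZIP52 (AT1G06850), a group I relative of VIP1, had 388.6 and 364.5 in control roots and 460.6 and 470.5 in selenate roots, and 135.9 and 158.9 in control shoots against 120.7 and 109.3 in selenate shoots. The selenate arrays lay above the control arrays in roots and below them in shoots. The log2 changes were 0.29 ± 0.17 in roots and -0.30 ± 0.17 in shoots (SE, n = 2 per group; limma adjusted p = 0.547 and 0.490). Their difference was -0.59 ± 0.24 (unadjusted p = 0.0391, limma adjusted p = 0.284). For the difference between organs 0 of the 9 genes were called by limma, against 3.7% of all probe sets. An unadjusted p under 0.05 was found for 3 of the 9, and the share of all probe sets with such a p was not counted.

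**Figure D3:**
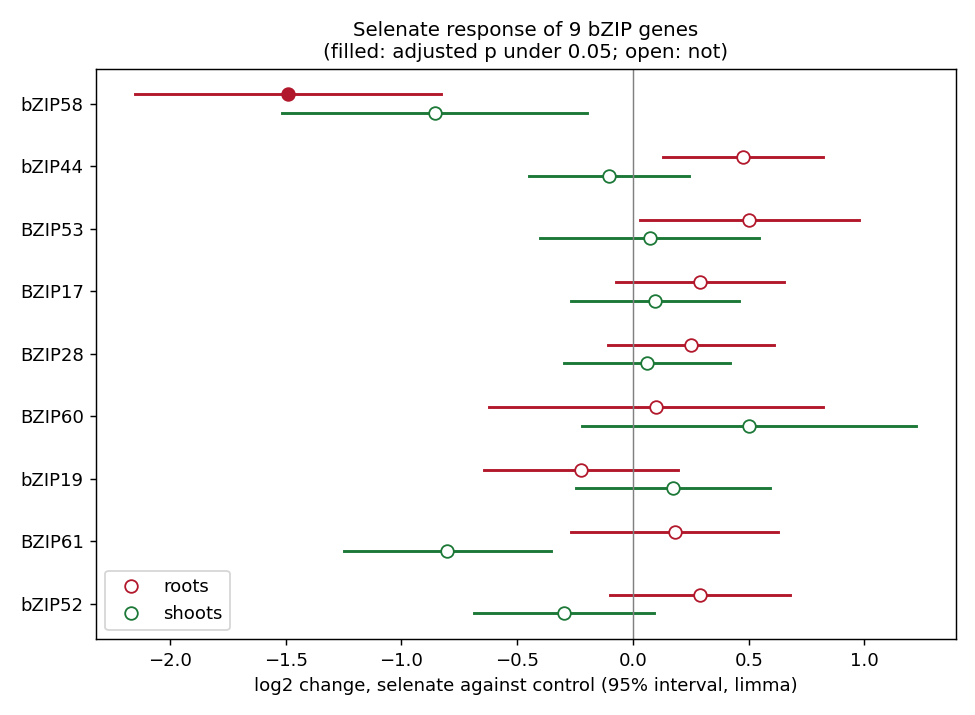
Log2 change with selenate (horizontal axis, 95% interval from limma) of each numbered bZIP gene in roots and in shoots; filled points have an adjusted p under 0.05. bZIP58 in roots, at -1.49, is the filled point, and the shoot interval of BZIP61 runs from -1.25 to -0.36.

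Of the 5 numbered bZIP genes left out by the signal level, BZIP34 (AT2G42380) came nearest by its highest array. It belongs to group E with BZIP61, and the gene is known from pollen development. Its signal was 85.9 and 119.7 in control shoots, 16 and 7.2 in selenate shoots, and between 2.7 and 6.6 on the 4 root arrays. Both control shoot arrays thus stood above all others, and 1 of 8 arrays reached 100. It was tested only when no signal level was asked for, and there its log2 change in shoots was -1.80 ± 0.24 (SE, n = 2 per group; limma adjusted p = 0.0160), a call made for 0.945% of all 22746 probe sets in that fit.

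The shoot change of BZIP34 and that of the roots differed by -1.90 ± 0.34 in the same fit (limma adjusted p = 0.0256, against 2.2% of all probe sets called). Root signals were between 2.7 and 6.6 over both media, so a fall in roots could not have been seen. The root change was 0.10, and the difference mostly repeats the shoot change. This test therefore cannot decide whether the organs respond differently. Without both shoot arrays of high GAPDH ratio, which leaves 1 array in each shoot group, the shoot change was -1.78. The size rests on the pseudocount, since selenate shoots and roots lie below it: the shoot change was -2.73 when the pseudocount was 1% of the trimmed mean signal and -0.86 when it was 20%, in place of 5%. The call of the difference ended with the pseudocount of 1% (adjusted p = 0.0740), without any 1 root array (0.116 to 0.148) or without shoot selenate 2 (0.0795). The shoot call ended without shoot selenate 1 (adjusted p = 0.0886), without shoot selenate 2 (0.0976) or without any 1 root array (0.0649 to 0.0668). BZIP34 was singled out after its values were seen.

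**Figure D4:**
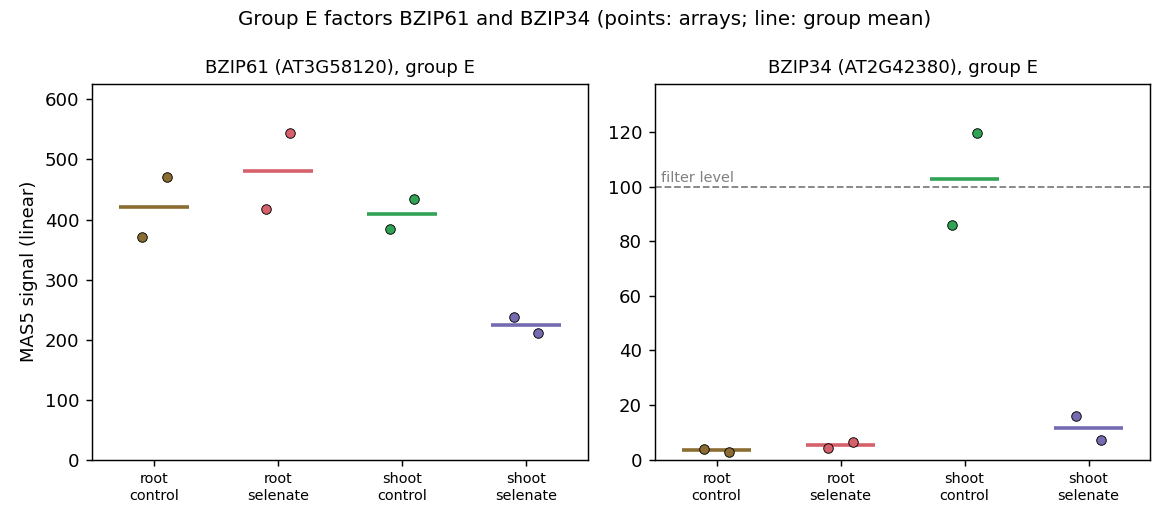
Signal (linear MAS5 units) of the group E factors BZIP61 and BZIP34 on the 8 arrays, points for arrays and lines for group means; the dashed line is the signal of 100. Both genes are lower on the 2 selenate shoot arrays than on the 2 control shoot arrays, and BZIP34 is between 2.7 and 6.6 on all root arrays.

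The other 4 were weak on every array. BZIP24 (AT3G51960), a group F factor of salt stress, ranged from 39.7 to 90.1 with a median of 57.7, and had a log2 difference of -0.55 between control shoots and control roots in the fit without a signal level (limma adjusted p = 0.114). bZIP42, bZIP43 and bZIP48 are of group S like bZIP58. bZIP42 had 53.8 and 76.8 in control shoots and 8.1 and 16.1 in control roots, a log2 difference of 1.28 in that fit (limma adjusted p = 0.0286), and BZIP34 one of 2.16 (adjusted p = 9.22e-05), where 46.3% of all probe sets were called. bZIP43 and bZIP48 ranged from 2.4 to 52.3 and from 2.2 to 42.7 over the 8 arrays. None of these 4 was called with selenate in that fit, where 3.57% of probe sets were called in roots and 0.945% in shoots. bZIP48 went from 37.7 and 42.7 to 12.7 and 16.6 in roots (log2 change -0.72, limma adjusted p = 0.512). bZIP42 had 37.1 and 5.6 in selenate shoots (-1.04, adjusted p = 0.308). The other selenate changes of the 4 ran from -0.09 to 0.60. Among the genes that passed, bZIP58 reached 100 on 5 of 8 arrays and each of the other 8 genes on all 8.

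Between the control organs 5 of the 9 genes were lower in shoots than in roots and 0 were higher (limma, adjusted p under 0.05). Of all probe sets tested 63.2% were called, 37.5% lower and 25.7% higher, so a share of this size is not particular to the bZIP genes. The largest difference was that of bZIP44, at -1.47 ± 0.15 (log2, SE, n = 2 per group; adjusted p = 2.70e-05), with 813.2 and 744.6 in control roots and 274.7 and 255.2 in control shoots. bZIP52 differed by -1.22 ± 0.17 (adjusted p = 0.000209), bZIP58 by -0.82 ± 0.29 (0.0337), BZIP17 by -0.64 ± 0.16 (0.00653) and bZIP19 by -0.56 ± 0.19 (0.0245). BZIP28 (-0.35), BZIP60 (-0.36), BZIP61 (-0.03) and BZIP53 (0.24) were not called.

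These organ differences depend in part on how arrays are scaled. The median difference over all probe sets was -0.21 as deposited and 0.05 after median centring, where 5269 probe sets were higher and 4695 lower in place of 4130 and 6022. bZIP44 and bZIP52 were then still lower in shoots, and BZIP17 (-0.38), bZIP19 (-0.29) and bZIP58 (-0.57) lost their calls (limma adjusted p = 0.0608, 0.196 and 0.127). Every shoot array had a higher GAPDH ratio than any root array, so organ and RNA integrity cannot be told apart in this comparison. The call of bZIP58 also ended without root control 1, root control 2, root selenate 1, root selenate 2 or shoot control 2 (0.0531 to 0.169), that of bZIP19 without root control 1, root control 2 or shoot control 1 (0.0690 to 0.134), and that of BZIP17 without root control 2 (0.05001).

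**Figure D5:**
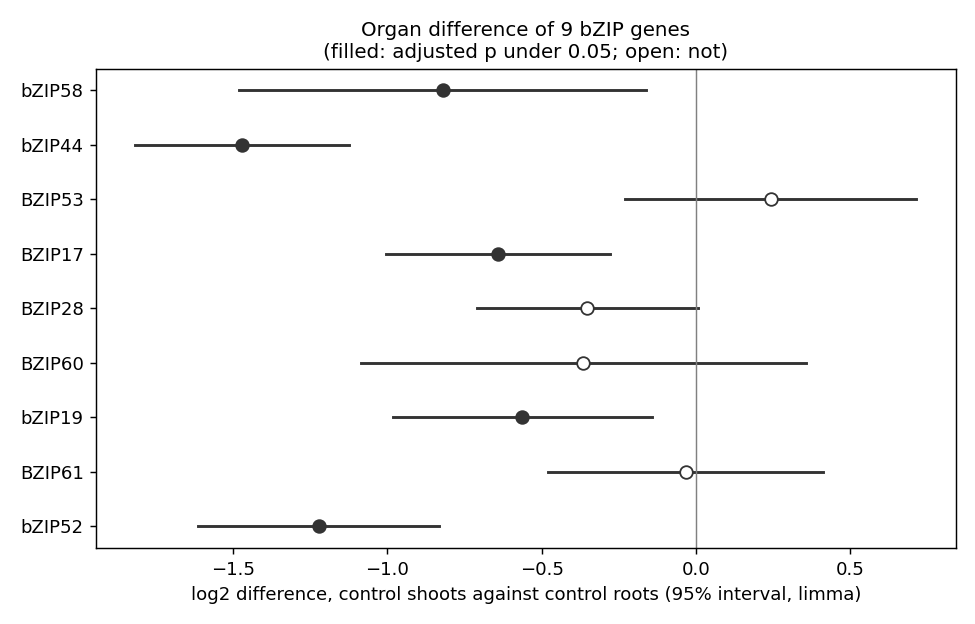
Log2 difference of control shoots against control roots (horizontal axis, 95% interval from limma) for the 9 numbered bZIP genes; filled points have an adjusted p under 0.05. The 5 filled points, from -1.47 for bZIP44 to -0.56 for bZIP19, all lie on the root side.

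Set over all 4 groups, the order of levels differed between genes. For bZIP44 and bZIP52 the order was selenate roots, control roots, control shoots, selenate shoots, and no neighbouring groups overlapped. For bZIP58 it was control roots, control shoots, selenate roots, selenate shoots, and the last 2 overlapped, so that both selenate groups lay below both control groups. For BZIP17 and BZIP28 selenate roots came first and control roots second, and the shoot groups overlapped. For BZIP61 the first 3 groups overlapped with their neighbours, and selenate shoots stood apart below them. All neighbours overlapped for BZIP53. For bZIP19 control roots came first and selenate roots second, apart from each other and from the shoot groups, which overlapped. For BZIP60 selenate shoots overlapped selenate roots, and control roots overlapped control shoots.

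The genes most like bZIP58 over the 8 arrays, among 1247 tested probe sets of other genes with a symbol, were GT-1, SP1L4 and MCCA, with Pearson r of 0.914, 0.889 and 0.887 between log2 values. The arrays fall into 4 groups, so these values describe few independent points, and genes picked by likeness to bZIP58 over the same arrays must share its low values in selenate roots. Their root values are given as a description. GT-1 encodes a trihelix DNA-binding protein, and its signal was 741 and 744.3 in control roots and 485.7 and 452.7 in selenate roots (log2 change -0.64). MCCA, a subunit of methylcrotonyl-CoA carboxylase in leucine breakdown, had 1624.5 and 1247.4 in control roots and 719 and 710.9 in selenate roots (-0.97). SP1L4, of the SPIRAL1-like family of microtubule-associated proteins, had 854.7 and 569 in control roots and 315.9 and 280.4 in selenate roots (-1.16).

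In the same root samples some organ markers were lower with selenate. LHCB4.2 and EXPA7 fell, with log2 changes of -1.82 and -1.16 (limma adjusted p = 0.000106 and 0.0138), while EXPA18 (-1.34), PRK (-0.52), SBPASE (-0.04) and PYK10 (0.08) were not called. The summed signal of the 3 green-tissue markers was 428.1 and 443.9 in control roots and 259.9 and 260.9 in selenate roots. That of the 3 root markers was 17806 and 19595.2 against 18595.6 and 19247.6, and most of it is PYK10 (18327.5 and 16743 against 18137.9 and 18792.6). EXPA7 had 532.6 and 459.5 against 195.8 and 220.5, and EXPA18 had 735.1 and 603.5 against 261.9 and 234.5. The call of EXPA7 ended without any 1 root array (0.0937 to 0.189), and that of LHCB4.2 held with each array left out. The part of these cell types in the root value of bZIP58 was not tested.

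Further bZIP factors known by other names could be read for 4 of 29 listed genes, 3 of them above the signal level. With selenate 0 of 3 were called by limma in either organ, against 5.71% of all probe sets in roots and 1.86% in shoots. An unadjusted p under 0.05 in limma was found for 1 in roots and 0 in shoots. HYH, a light-signalling factor close to HY5, had 173 and 178.6 in control roots and 253.4 and 229 in selenate roots (log2 change 0.41, unadjusted p = 0.0437, adjusted p = 0.309). AT2G31370 (POSF21), of group I, had changes of 0.36 in roots and -0.34 in shoots, and EEL, an abscisate-related factor, of 0.15 and 0.07. Between control organs HYH was 2.66-fold higher in shoots (limma adjusted p = 8.12e-05), and AT2G31370 was not called (-0.34). EEL had 118.4 and 147.3 in control roots and 62.2 and 86 in control shoots (-0.68). EEL reached 100 on the 4 root arrays alone, so it passed the signal level only through the organ where it is high. Its difference is given as a description. With 1 array left out, the log2 difference ran from 1.31 to 1.52 for HYH and from -0.85 to -0.50 for EEL. FD, the flowering factor, was below the signal level.

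Genes that bZIP factors are known to control were few on the named part of the array. Of the low-energy genes under groups C and S1, 2 of 9 were tested, MCCA and AT5G38710 (PRODH2, proline dehydrogenase). MCCA, also listed above among the genes most like bZIP58, fell in roots with the values given there (limma adjusted p = 0.00796). In roots 2.37% of all probe sets were called lower. AT5G38710 fell in shoots from 124.5 and 188.9 to 45 and 59.8 (log2 change -1.21, limma adjusted p = 0.0425), where 1.86% of all probe sets were called. Each was called in 1 organ only, with changes of -0.33 for MCCA in shoots (adjusted p = 0.414) and 0.13 for AT5G38710 in roots (0.931), and for neither did the organs differ in the test (0.222 and 0.0718). The call of MCCA ended without root control 1, root selenate 1 or root selenate 2 (0.0789 to 0.127). The call of AT5G38710 ended with each array left out except shoot control 1 (limma adjusted p 0.0696 to 0.185). Of the unfolded protein response genes 1 of 10 was tested, the calreticulin gene CRT1b, whose changes were -0.06 in roots and -0.04 in shoots.

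Of 10 zinc deficiency genes ZIP9 could be matched to a probe set and lay below the signal level, and none of 7 light-induced genes under HY5 could be matched; unmatched genes may be among the probe sets that have no name here. Of the genes that go with TGA bZIP factors 1 of 9 was tested, the glutaredoxin gene GRX480. It had 253.6 and 200.5 in control roots and 3674.5 and 3051.7 in selenate roots (limma adjusted p = 5.39e-06), where 3.35% of all probe sets were called higher. Its change in shoots was 0.02. Of the abscisate genes under ABF factors 3 of 8 were tested, COR15A, COR47 and LTI30. In shoots COR47 rose from 2176.8 and 2177 to 3658 and 3350.3 (log2 change 0.68, limma adjusted p = 0.0475). Of all probe sets 1.86% were called there. LTI30 lay between 38.2 and 63.3 on the shoot arrays and passed the signal level only through the root arrays. Its shoot change of -0.17 (limma adjusted p = 0.770) is thus one of weak signals and is given as a description. COR15A had 59.7 and 64.4 in control shoots and 234 and 354.3 in selenate shoots; it reached 100 on these 2 selenate arrays alone, so it passed the signal level only through the group where it is high, and its difference is given as a description. The call of COR47 ended with each array left out except shoot control 2 (limma adjusted p 0.0554 to 0.209). In roots 0 of 3 were called by limma, against 5.71% of all probe sets, and 1, LTI30 (-0.44), had an unadjusted p under 0.05.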

How the data were processed

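The values the authors deposited are linear intensity signals, made with MAS5 per the submitters' processing notes, its version being not given in the sources used here. Trimmed by 2% at either end, the mean signal is 500.04 or 500.05 on each array, so total signal is set alike in roots and shoots. MAS5 summarises each array alone, and weak signals carry large relative errors. Detection calls and the genome build are not used here, and no coordinates are printed.

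Probe sets were named through an annotation table of the array, with symbols brought up to RefSeq (TAIR10.1) by gene identifier. It gave 1 gene for 13513 of 22810 probe sets. Symbols and locus codes are those of RefSeq; family groups are textbook background. Controls (64) were left out. Probe sets with a signal of 100 on at least 2 arrays were tested with limma 3.58.1 in R 4.3.3: log2(signal + 25), 1 mean per group, variance trend, 4 residual and 5.12 prior degrees of freedom, Benjamini-Hochberg over all 16053. The procedure was checked on simulated data. Having 2 arrays per group limits the precision.

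Genes with full statistics were chosen by rule: every call with selenate, the 3 largest uncalled changes per organ whose groups did not overlap, the called organ differences, up to 4 called members of each of 7 gene lists (82 entries), and the 3 genes most like each called member. The text adds statistics for the remaining members. The members and lists were chosen with earlier results of these data known. Other settings were 2 pseudocounts, 2 signal filters, 3 scalings, no trend, array weights, a replicate block, 1 organ per fit, and arrays left out. Same-numbered arrays deviated together in roots (r = 0.34) and oppositely in shoots (-0.48), and no label says that numbers pair samples.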

Additional observations from a re-analysis of the deposited data

How the results depend on the processing

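The 14 log2 changes of numbered bZIP genes that were rerun (those chosen by the rule, and BZIP34) kept their sign under each setting tried. Of the other changes named, some called ones were rerun only with 1 array left out, and the rest were not rerun. In roots the number of bZIP genes called, 1 as reported, was 3 with array weights, 3 with only the root arrays, 3 without both shoot arrays of high GAPDH ratio, 0 with the replicate block, and 0 to 1 with 1 array left out. In shoots it was 0 with each array left out and under the other planned settings. The replicate block kept it at 0 there and for the difference between organs. Chosen after seeing the data, a block with the shoot numbers crossed called 3 genes in roots, 3 in shoots and 1 for the difference, where 1880, 1578 and 1910 of 16053 probe sets were called in place of 917, 299 and 594. Between control organs the number, 5 as reported, was 2 after median centring, 3 with the replicate block and 2 to 6 with 1 array left out; it was 7 without both shoot arrays of high ratio. With the replicate block the root change of bZIP58 stayed at -1.49 and its adjusted p was 0.124, and the organ difference of bZIP19 and of bZIP58 lost its call (0.150 and 0.121); the labels do not say that the numbers pair samples. The call of bZIP58 in roots held under 16 of 21 settings, and its organ difference under 9 of 20. Over all probe sets the calls between control organs were 10152 as reported, 9964 after median centring and 7476 with the replicate block. They rose without both shoot arrays of high ratio, which leaves 1 array in each shoot group. The moves from 5 to 3 and to 7 are therefore not particular to the bZIP genes. Over all probe sets the root calls were 2200 with array weights, 2145 with only the root arrays and 437 with the replicate block. The shoot calls were 85 with array weights, 0 with only the shoot arrays, 0 with the replicate block, and 745 without both shoot arrays of high ratio, where root calls were 2047. With 1 array left out they ranged from 398 to 1351 in roots, from 51 to 631 in shoots and from 233 to 1017 for the difference. Arrays left out lower the residual degrees of freedom, and other causes of these shifts were not tested. Depth is not defined for these arrays; signals near 25 limit the size of any change of BZIP34.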

Other observations

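A further 6 genes carry a bZIP number only among their synonyms and are listed by locus code; they were looked up after the values of the numbered genes were seen. Of these, 4 passed the signal level. With selenate 0 of the 4 were called by limma, against 5.71% of all probe sets in roots and 1.86% in shoots. In either organ 0 had an unadjusted p under 0.05. AT4G38900 (bZIP29) was higher in control shoots, with 631.8 and 1273.7 against 379.2 and 366.7 in control roots (log2 difference 1.21 ± 0.29 SE, adjusted p = 0.00474), and its higher control shoot array was the one with the higher GAPDH ratio. AT2G40620 (bZIP18) was lower in control shoots, with 184.7 and 149.9 against 438.9 and 553.4 (-1.44 ± 0.21, limma adjusted p = 0.000249). AT2G21230 (bZIP30) had 462.6 and 471.5 in control roots and 382.5 and 349.1 in selenate roots (-0.33, limma adjusted p = 0.537). AT1G06070 (bZIP69) had log2 changes of 0.20 in roots and -0.35 in shoots. Its selenate arrays lay above the control arrays in roots and below them in shoots, as for bZIP44, bZIP52 and AT2G31370. AT4G38900 (-0.08 in roots, -0.02 in shoots), AT2G40620 (-0.15, -0.24) and AT2G21230 (-0.33, 0.02) did not have this order. The share of all probe sets with this order was not counted. AT2G12900 (bZIP33) and AT2G13150 (bZIP31) did not exceed 15.6 and 33.8 on any array.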
